A study of Mus musculus with 6 samples.

Results

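Transforming growth factor beta (TGF-beta), bone morphogenetic protein (BMP) and activin signalling was followed here through 42 genes chosen by symbol, of 22482 protein-coding genes measured. They are 7 ligand genes, 4 genes of latency and processing, 10 receptor genes, 4 ligand antagonists, 5 SMAD genes, 7 feedback genes and 5 response genes. RNA came from mouse (C57BL/6) aortic vascular smooth muscle cells (VSMCs), the muscle cells of the artery wall, cultured with 10% fetal bovine serum and taken 48 h after adenovirus was added. The labels put 3 libraries in a Myocd knockdown group, given a knockdown adenovirus, and 3 in a control group, given a negative control virus. The design text of the series speaks of wildtype cells instead of control virus. Separate cultures or animals are not mentioned for the 3 libraries of a group. The p-values therefore rest on a spread among libraries that may be technical only. If the second group had no virus, the effects of virus and of Myocd cannot be told apart.

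Ligands of this family bind pairs of type I and type II receptor kinases, which phosphorylate SMAD proteins. Phosphorylated SMAD2 and SMAD3 (after TGF-beta or activin) or SMAD1 and SMAD5 (after BMP) join SMAD4 and enter the nucleus to switch genes on or off. TGF-beta is secreted in a latent form held by LTBP proteins in the matrix, inhibitory SMADs and SKI proteins damp the signal, and in the aortic wall the pathway is known for its part in smooth muscle contractile gene expression and matrix production and for inherited aortic aneurysm.

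Myocd, which encodes the serum response factor coactivator myocardin, did not follow the labels. Its levels were 131.7, 130.1 and 145.5 FPKM (fragments per transcript length and library depth) in the knockdown-labelled libraries and at 0.0355, 0 and 0.125 FPKM in the control-labelled ones. This was a log2 fold change of 9.87 (SE 0.27; adjusted p = 1.11e-05 in limma). Libraries are therefore called by their labels, and every difference is labelled knockdown minus labelled control, so that a higher gene was higher where Myocd was higher. Depth was 7528153 to 9793782 fragments per library. The replicate 3 libraries of the 2 groups had 40 genes to themselves, each with at least 3 fragments in both and 0 in the other 4 libraries, against at most 1 gene in any other pair of one library from each group. None of the 40 is a tested member, but Postn, a matrix gene, was among them with 0, 0 and 154 fragments in each group, and the part of this in the results was not tested. Of 8 tested smooth muscle markers, 3 were higher in the knockdown-labelled libraries and none was lower in limma. Lmod1, among the 8, entered the test only through its higher group, and Myocd itself did so too. For Tagln, control replicate 3 (1.65 FPKM) was the only control-labelled library that reached the filter. All 10 listed markers summed to between 768.4 and 809.5 FPKM in the knockdown-labelled libraries against 438.7 to 493.5 FPKM in the control-labelled ones. Acta2 alone was at 332.3 to 346.2 FPKM against 63.1 to 71.5 FPKM, while Smtn, Tpm2 and Mylk overlapped between the groups. The defining late markers Myh11 (at most 0.0846 FPKM) and Cnn1 (at most 0.353 FPKM) were close to 0 in all 6 libraries. Of 6 mesothelial markers, Krt19, a keratin also of epithelium, stood at 224.9 to 273.1 FPKM and Msln at 73.1 to 86.9 FPKM. The other mesothelial markers, Wt1, Upk3b, Upk1b and Lrrn4, were at most 1.05, 0.560, 0.168 and 0.0622 FPKM. The 8 fibroblast markers summed to 1065.5 to 1315.2 FPKM in the knockdown-labelled libraries and 996 to 1184.7 FPKM in the control-labelled ones. Most of that sum was Ly6a (973.3 to 1292.4 FPKM), with Pdgfra at 14.9 to 17.4 FPKM. The macrophage and leukocyte markers summed to 20.6 to 24.5 and 22.4 to 26.5 FPKM, mostly Cd14, with Ptprc at most 0.0277 FPKM. The lymphocyte markers summed to at most 0.14 FPKM, and the part of other cell types in any result was not tested. In bulk RNA, fewer cells of a type and less RNA per cell cannot be told apart.

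Most of the signalling genes were expressed in these cells, and few differed between the groups. Of the 42 genes, 39 reached 0.5 FPKM or more in 3 or more libraries and were tested. Bmp2, Bambi and Tgfbi did not reach it. Inhba and Grem1, an activin subunit and a BMP antagonist, rose in the knockdown-labelled libraries, none fell, and 37 did not pass at an adjusted p of 0.05 in limma, the linear model test used on log2(FPKM + 0.1). Over all genes tested the test called 3.44%, with 1.83% higher (213 genes) and 1.61% lower (187 genes; 266 and 150 after centring each library on its median, which moved the median of all genes by 0.0241). The 2 of 39 is near that background. At an unadjusted p under 0.05, 4 of the genes were higher and 6 lower, against 22.4% of all genes in either direction. With edgeR's quasi-likelihood test on fragment numbers, 2 were higher and 3 lower (Ltbp3, Tgfbr1 and Smad7), against 9.95% of all genes called, 5.45% higher and 4.50% lower. EdgeR called no member lower when control replicate 1, control replicate 2, knockdown replicate 1 or knockdown replicate 2 was left out. DESeq2, another count test on the same fragments, passed Ltbp3 (adjusted p = 0.0386) but not Tgfbr1 (0.0742) or Smad7 (0.126).

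The differences were small as well as few. The median log2 fold change of the 39 tested genes was 0.02, against -0.01 for all genes tested, and the median size of the change was 0.13 on the log2 scale in both. A log2 fold change of under 0.25 in size was found for 33 of the 39 (84.6%, against 74.3% of all genes tested). For 30 of them (76.9%, against 64.5%) the 95% interval lay wholly within 0.5 of 0 on the log2 scale. In 9 genes every knockdown-labelled library was above every one labelled control, and in 8 it was below, against 13.3% and 15.6% of all genes (28.9% in either direction). One of the 9, Acvr2b, entered the test only through its higher group. A single gene in 3 against 3 libraries cannot go below p = 0.1 in an exact two-sided permutation test. The smaller p-values given here rest on the assumptions of the models, which combine each gene's own spread with the spread shared across genes.

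**Figure D1:**
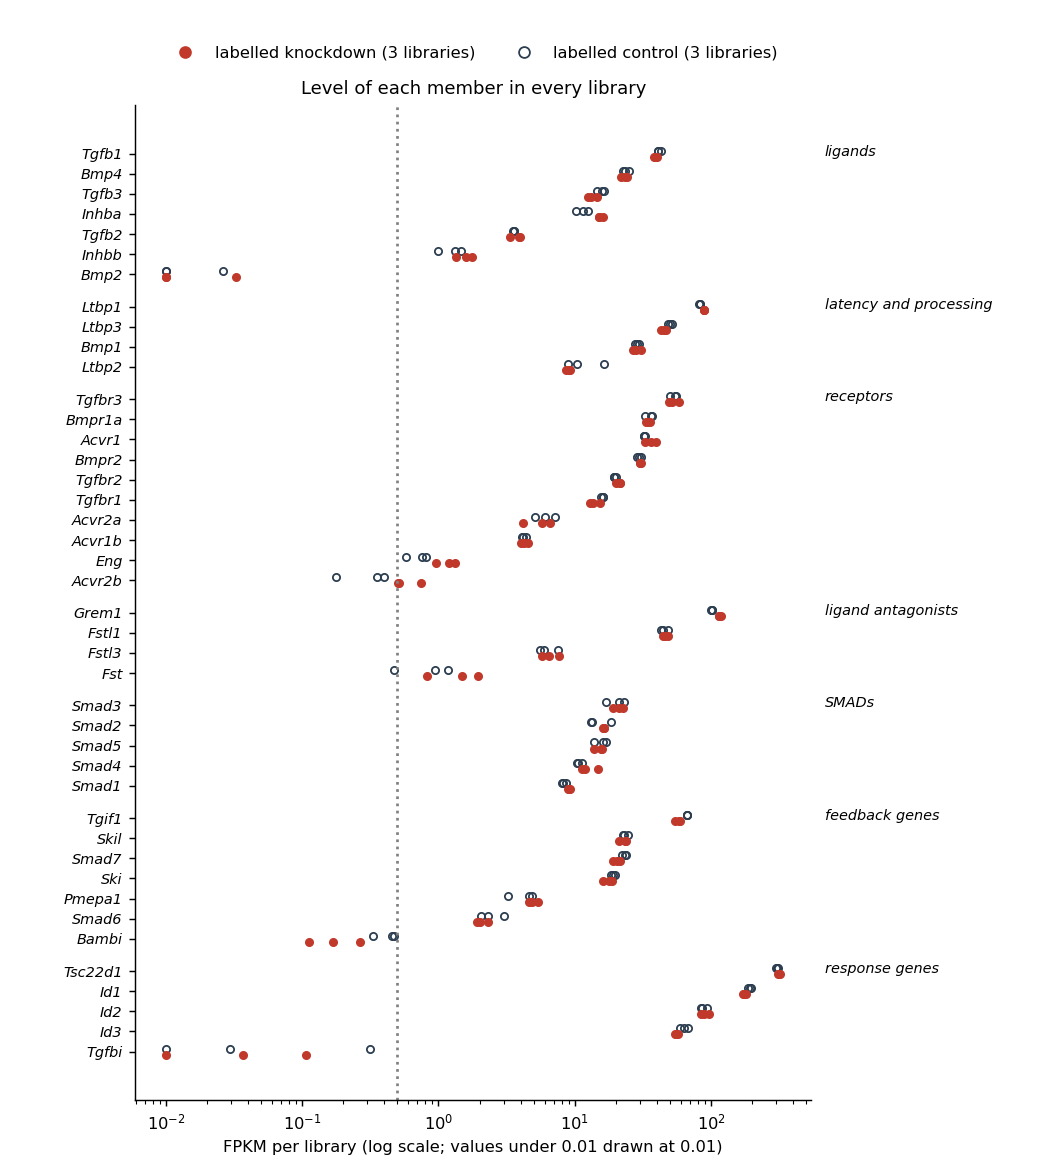
Level of each of the 42 genes in FPKM on a log axis, ordered by role and mean level, with values under 0.01 drawn at 0.01 and a dotted line at 0.5 FPKM; each point is 1 library, open for the control-labelled ones and filled for those labelled knockdown. The levels run from Bmp2, close to 0, to Tsc22d1 at a mean of 310.3 FPKM, and the 2 groups lie close together at nearly every gene.

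Among the ligands, Tgfb1, the main TGF-beta form of the vessel wall, was the most abundant, at 38.8, 38.0 and 40.0 FPKM in the knockdown-labelled libraries and 40.7, 42.9 and 40.8 FPKM in the control-labelled ones. The groups did not overlap in FPKM but did in fragments per library size (here, fragments in each 1000000 of the library, with no length term), and the difference was small (log2 fold change -0.09, SE 0.05, limma adjusted p = 0.314). Bmp4 followed at a mean of 23.4 FPKM, then Tgfb3 at 14.5 and Inhba at 13.4 FPKM, whose ranges overlapped, then Tgfb2 at 3.65 and Inhbb at 1.42 FPKM. Bmp2 had 0, 0 and 1 fragments in the knockdown-labelled libraries and 0, 0 and 1 in the control-labelled ones, too few for any comparison. Tgfb3 was at 13.4 ± 1.09 FPKM against 15.5 ± 0.826 FPKM (SD, n = 3), without overlap in FPKM but with overlap in fragments per library size, and did not pass (log2 fold change -0.22, limma adjusted p = 0.187). Bmp4, Tgfb2 and Inhbb overlapped between the groups.

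Inhba was the ligand gene that rose. It encodes the beta A subunit, which pairs with itself to form activin A. Its values were 15.0, 15.1 and 16.0 FPKM in the knockdown-labelled libraries and 10.2, 12.4 and 11.4 FPKM in the control-labelled ones. Every knockdown-labelled library was above every one labelled control, at means of 15.4 ± 0.552 and 11.4 ± 1.10 FPKM (SD, n = 3), a 1.35-fold difference. The log2 fold change was 0.44 (SE 0.09, 95% interval 0.23 to 0.64, limma adjusted p = 0.0466). In edgeR the estimate was 0.45 (adjusted p = 0.0171). The limma call was lost when any 1 of the 6 libraries was left out, with an adjusted p of 0.0815 to 0.125, and edgeR lost it without control replicate 1 or knockdown replicate 2. With both replicate 3 libraries left out the adjusted p was 0.149 in limma and 0.0308 in edgeR.

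Grem1 encodes gremlin 1, a secreted antagonist that binds BMP ligands such as BMP4, and it was by far the most abundant of the 4 antagonist genes. It stood at 114.2, 117.4 and 115.0 FPKM in the knockdown-labelled libraries and at 101.1, 101.5 and 99.1 FPKM in the control-labelled ones. The groups were well apart for their spread, at means of 115.6 ± 1.65 and 100.6 ± 1.30 FPKM (SD, n = 3), though the step was only 1.15-fold. The log2 fold change was 0.20 (SE 0.04, 95% interval 0.11 to 0.29, limma adjusted p = 0.0359). In edgeR the estimate was 0.21 (adjusted p = 0.00142). Here too limma lost the call when any 1 library was left out, while edgeR kept it in each case. With both replicate 3 libraries left out the adjusted p was 0.0931 in limma and 4.95e-04 in edgeR. Of the other antagonists, Fstl1 (mean 45.8 FPKM), Fstl3 (6.50 FPKM) and the activin-binding follistatin gene Fst (1.15 FPKM) overlapped between the groups in FPKM and did not pass. In fragments per library size Fstl1 was higher in the knockdown-labelled libraries without overlap (edgeR log2 fold change 0.13, adjusted p = 0.102).

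**Figure D2:**
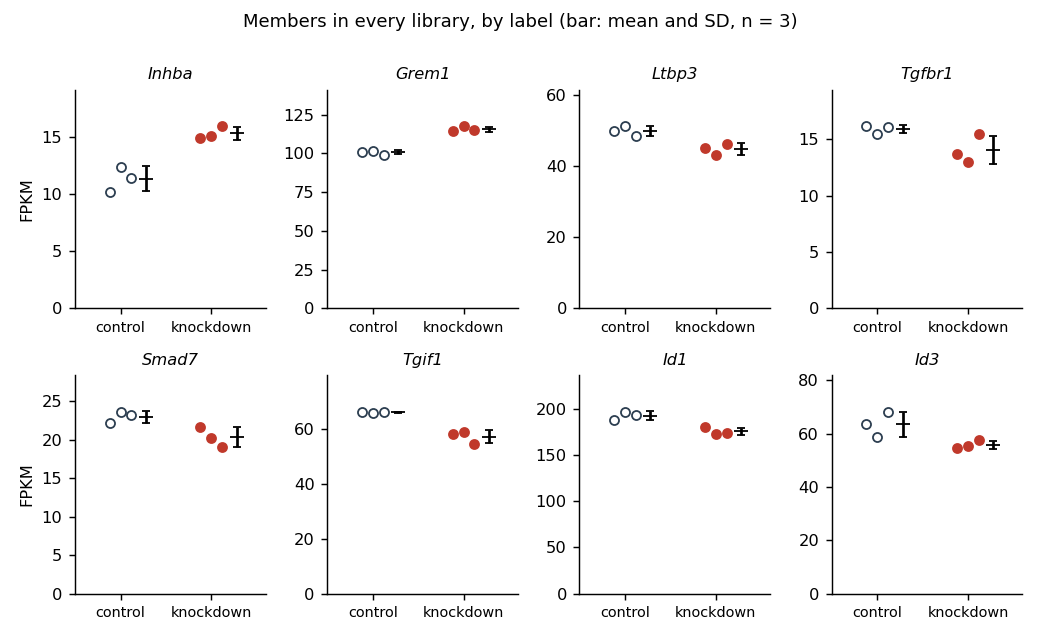
FPKM in every library for the 5 genes called by limma or edgeR, and for Tgif1, Id1 and Id3, in panels that start at 0; each point is 1 library and the bar gives the mean and SD of 3. Inhba and Grem1 are higher in the knockdown-labelled libraries and Ltbp3, Tgfbr1 and Smad7 are lower there, each by a step that is small beside the level.

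The sequence before the start site is shown for 4 of the 5 genes that limma or edgeR called, to set the upstream regions of the higher and the lower genes side by side. They are the 250 bases upstream of the start in RefSeq's GRCm38.p6 (mouse) annotation, read 5′ to 3′ on the gene's strand, with capitals marking the motif GGCGCC, a GC-rich element to which SMAD1 and SMAD5 can bind. Inhba lies at chr13:16011601-16011850 (plus strand), Grem1 at chr2:113758649-113758898 (minus strand), Ltbp3 at chr19:5740650-5740899 (plus strand) and Tgfbr1 at chr4:47352972-47353221 (plus strand).
Inhba: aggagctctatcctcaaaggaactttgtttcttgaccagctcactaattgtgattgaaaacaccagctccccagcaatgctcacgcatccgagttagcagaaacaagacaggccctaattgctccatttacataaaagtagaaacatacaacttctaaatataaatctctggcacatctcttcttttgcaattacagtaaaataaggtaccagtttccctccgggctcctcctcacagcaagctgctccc
Grem1: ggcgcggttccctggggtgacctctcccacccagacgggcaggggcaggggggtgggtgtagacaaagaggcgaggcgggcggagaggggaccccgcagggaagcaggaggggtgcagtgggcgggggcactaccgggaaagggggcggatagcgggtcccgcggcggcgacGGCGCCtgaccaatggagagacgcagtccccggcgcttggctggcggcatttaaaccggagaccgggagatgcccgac
Ltbp3: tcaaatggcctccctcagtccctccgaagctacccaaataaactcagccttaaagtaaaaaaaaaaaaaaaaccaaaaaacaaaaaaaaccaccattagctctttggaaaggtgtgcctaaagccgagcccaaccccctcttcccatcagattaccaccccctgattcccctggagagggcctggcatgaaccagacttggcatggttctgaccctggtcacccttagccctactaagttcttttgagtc
Tgfbr1: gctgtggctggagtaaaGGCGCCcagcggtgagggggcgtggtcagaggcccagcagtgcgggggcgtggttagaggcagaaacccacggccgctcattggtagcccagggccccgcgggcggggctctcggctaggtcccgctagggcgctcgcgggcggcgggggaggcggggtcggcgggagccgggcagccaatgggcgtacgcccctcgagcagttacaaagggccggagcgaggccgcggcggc

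In the stretches shown, GGCGCC occurred once before Grem1, 78 bases upstream of the start, and once before Tgfbr1, 233 bases upstream. It was thus present beside a gene that was higher and a gene that was lower. The Inhba and Ltbp3 stretches held none of the motifs searched. They were also poorer in G and C, at 43.2% and 47.2%, than those of Grem1 (72.0%) and Tgfbr1 (74.8%). The start used for Inhba lies inside the gene as the annotation draws it, downstream of its 5′ end. The locus listed with the Ltbp3 values, chr19:5590100-6300096, extends well beyond the RefSeq gene at 5740900-5758536. The locus listed for Inhba starts at 15807243, against 16004256 in RefSeq. Some other members, such as Fstl3 and Acvr2a, also had loci wider than in RefSeq. Whether their values include transcripts that start elsewhere was not tested. RefSeq windows were found for 30 of the 42 genes, 42 windows in all. On either strand GGCGCC was in 10 of them (9.59% of 32851 windows over all genes), the SMAD element CAGACA in 7 (17.1%), the TEAD element CATTCC in 1, before Id3 (12.6%), and the AP-1 element TGACTCA in 0 (4.46%). The CArG box, the element bound by serum response factor, was in 0 of the 42 and in 1.47% of all windows. Windows were matched for letters only, several genes had more than 1 window, and no motif contains another. Tgfbr1 had 2 windows, and its CAGACA match lay in the one not shown.

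Of the genes that hold TGF-beta in the matrix or process ligands, Ltbp1 was the most abundant, at 88.5, 88.3 and 88.9 FPKM in the knockdown-labelled libraries and 83.1, 83.5 and 81.6 FPKM in the control-labelled ones. It encodes a latent TGF-beta binding protein, and the groups did not overlap (log2 fold change 0.10, SE 0.04, limma adjusted p = 0.176). Ltbp3, another such protein, went the other way, at 45.1, 43.1 and 46.4 FPKM against 49.9, 51.3 and 48.5 FPKM. Its groups did not overlap either (over all genes 13.3% were apart and higher, 15.6% apart and lower). The log2 estimate of -0.15 (SE 0.05) missed the threshold in limma (adjusted p = 0.134), and edgeR placed the gene lower (log2 fold change -0.14, adjusted p = 0.0430). Bmp1, a protease that cleaves procollagen and releases ligands, overlapped between the groups at a mean of 28.5 FPKM. Ltbp2 overlapped in FPKM, where control replicate 3 held 16.4 FPKM and the other 5 libraries 8.58 to 10.4 FPKM (log2 fold change -0.36, limma adjusted p = 0.351). In fragments per library size it was at 53.6, 44.2 and 49.7 against 56.7, 54.3 and 60.6, where that library did not stand apart and the groups did not overlap (edgeR -0.20, adjusted p = 0.132).

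None of the 10 receptor genes passed in limma, 3 were higher and 1 lower without overlap in FPKM (13.3% and 15.6% over all genes), and edgeR called Tgfbr1 alone. One of the 3, Acvr2b, passed the filter only through its higher group. The co-receptor Tgfbr3 (betaglycan), which presents TGF-beta to the signalling receptors, had the highest level, at 52.0, 49.5 and 57.9 FPKM against 50.3, 54.7 and 55.0 FPKM, and the groups overlapped. The estimate was -0.01 on the log2 scale (SE 0.07, 95% interval -0.17 to 0.16, limma adjusted p = 0.965). Tgfbr1, the type I receptor kinase for TGF-beta, was at 13.7, 13.0 and 15.4 FPKM in the knockdown-labelled libraries and 16.2, 15.5 and 16.1 FPKM in the control-labelled ones. The highest library of the first group lay just under the lowest of the second (log2 fold change -0.18, SE 0.08, limma adjusted p = 0.235; edgeR -0.21, adjusted p = 0.0236). Tgfbr2, its type II partner, lay the other way without overlap, at 21.0 ± 0.71 against 19.7 ± 0.424 FPKM (SD, n = 3; limma adjusted p = 0.367).

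The BMP receptor genes Bmpr1a (mean 34.7 FPKM) and Bmpr2 (29.9 FPKM) were about as abundant as each other and overlapped between the groups. The activin receptor genes were scarcer, with Acvr2a at 5.81, Acvr1b at 4.25 and Acvr2b at 0.447 FPKM. Eng, the endoglin co-receptor best known from endothelium, stood at 1.32, 0.967 and 1.19 FPKM in the knockdown-labelled libraries and 0.575, 0.753 and 0.806 FPKM in the control-labelled ones, without overlap and without passing (log2 fold change 0.63, SE 0.26, limma adjusted p = 0.21). The fragments behind these values, 30, 17 and 35 against 22, 20 and 25, overlapped once scaled to library size, and edgeR gave 0.47 (adjusted p = 0.394). With single libraries left out the estimate for Eng ran from 0.16 (edgeR without knockdown replicate 3) to 0.755 over both tools. The sum of 8 endothelial markers was 1.30 to 2.34 FPKM and 0.468 to 1.22 FPKM in the same groups, with 7 of the 8 under 0.5 FPKM in every library. Vwf alone was tested, and entered the test only through the knockdown-labelled libraries, where it was higher. The part of these markers in the Eng values was not tested.

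Acvr1, the type I receptor kinase ALK2, gave estimates of opposite sign in the 2 units. In FPKM it was at 32.5, 36.4 and 39.2 in the knockdown-labelled libraries and 32.6, 32.4 and 32.2 in the control-labelled ones (log2 fold change 0.15, limma adjusted p = 0.284). In fragments per library size it was at 87.6, 87.8 and 95.2 against 102.6, 98.8 and 91.1, which gave -0.09 (edgeR adjusted p = 0.311). The groups overlapped on both scales, so no direction is given. With both replicate 3 libraries left out, edgeR called Acvr1 lower (log2 fold change -0.18, adjusted p = 0.0298) and limma did not call it. Estimates for Bmp1 and Tgfbr3 also differed in sign between limma and edgeR and lay close to 0 in both.

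**Figure D3:**
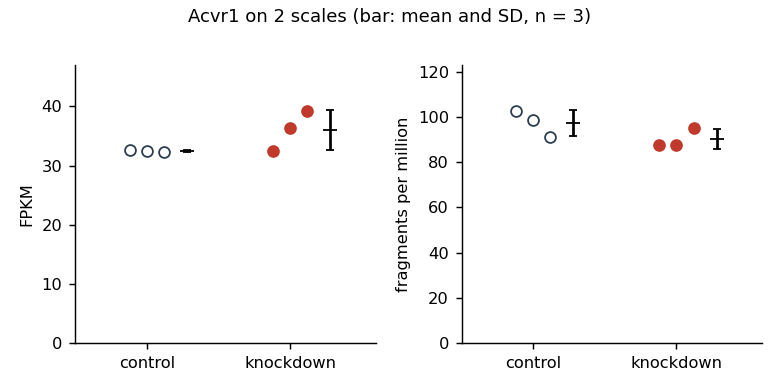
Acvr1 in every library as FPKM (left) and as fragments scaled to library size without the length term (right), on axes that start at 0; each point is 1 library and the bar gives the mean and SD of 3. The knockdown-labelled libraries reach above the control-labelled ones on the left and lie lower on average on the right.

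The 5 SMAD genes among the 42 that carry the signal were expressed in every library, none passed in limma, and none was called by edgeR. At an unadjusted p under 0.05 limma named none of them. Smad3, the receptor SMAD of TGF-beta and activin, had the highest mean level, at 19.0, 21.1 and 22.7 FPKM against 17.0, 22.8 and 21.1 FPKM. The groups overlapped in FPKM (log2 fold change 0.05, SE 0.12, limma adjusted p = 0.84). In fragments per library size Smad3 was at 106.4, 107.9 and 117.2 against 101.3, 99.7 and 101.9, without overlap, and edgeR gave a larger estimate that did not pass (0.15, unadjusted p = 0.00992, adjusted p = 0.0741). Smad2 and Smad5, at means of 15.7 and 15.3 FPKM, overlapped between groups too, with control replicate 3 of Smad2 at 18.5 FPKM above the 13.2 to 16.4 FPKM of the others. In fragments per library size that library, at 46.4, lay just under knockdown replicate 1, at 46.5. Smad4, the partner shared by all branches, was at 12.7 ± 1.91 against 10.7 ± 0.478 FPKM (SD, n = 3) and Smad1, a receptor SMAD of BMP, at 9.05 ± 0.132 against 8.31 ± 0.336 FPKM. Both were higher without overlap in FPKM (13.3% over all genes) and did not pass (limma adjusted p = 0.27 and 0.386). In fragments per library size Smad1 stayed apart while Smad4 overlapped.

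Feedback genes are switched on by the pathway and hold it back, or repress its targets. None of the 6 tested passed in limma, and Smad7 and Tgif1 were lower in the knockdown-labelled libraries without overlap (15.6% over all genes). Smad7, the inhibitory SMAD that targets the receptors, was at 21.6, 20.3 and 19.0 FPKM against 22.1, 23.6 and 23.2 FPKM. Each knockdown-labelled library was below each one labelled control (log2 fold change -0.18, SE 0.07, limma adjusted p = 0.179), and edgeR called the gene lower (-0.21, adjusted p = 0.0457). DESeq2 did not call Smad7 (adjusted p = 0.126), and edgeR lost the call without either of control replicates 1 and 2 or of knockdown replicates 1 and 2. Tgif1, a repressor that binds SMAD2, had the highest level of the feedback genes, at 58.5, 58.9 and 54.8 FPKM against 66.3, 66.1 and 66.4 FPKM. Among the members that missed the threshold in limma, Tgif1 had the smallest p there (log2 fold change -0.21, SE 0.05, limma adjusted p = 0.0555). In edgeR the estimate was -0.13 (adjusted p = 0.0869), and Bambi, Smad3 and Ltbp1 missed with smaller values (edgeR adjusted p = 0.0725, 0.0741 and 0.081).

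Smad6, the inhibitory SMAD of the BMP branch, was at 2.08 ± 0.217 against 2.47 ± 0.511 FPKM (SD, n = 3), and Ski, Skil and Pmepa1 overlapped between the groups as well. Bambi, a pseudoreceptor without a kinase, was too low for the test, at 0.169, 0.268 and 0.113 FPKM in the knockdown-labelled libraries and 0.330, 0.458 and 0.471 FPKM in the control-labelled ones. These values rest on 9, 14 and 5 fragments against 19, 25 and 26. The groups did not overlap, and edgeR, whose filter kept the gene, gave a log2 fold change of -1.15 (adjusted p = 0.0725).

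The response genes among the 42 included some of the most abundant RNAs measured. Tsc22d1, a TGF-beta stimulated leucine zipper gene, was at 310.8, 315.1 and 323.0 FPKM against 299.9, 304.8 and 308.5 FPKM, without overlap (log2 fold change 0.06, SE 0.03, limma adjusted p = 0.383). The Id genes encode inhibitors of basic helix-loop-helix factors and are classic targets of BMP signalling through SMAD1 and SMAD5. Id1 was at 179.6, 172.9 and 174.1 FPKM in the knockdown-labelled libraries and 187.1, 196.5 and 193.4 FPKM in the control-labelled ones (log2 fold change -0.13, SE 0.04, limma adjusted p = 0.103). Id3 was at 54.7, 55.4 and 57.6 FPKM against 63.5, 58.9 and 68.2 FPKM (log2 fold change -0.18, SE 0.06, limma adjusted p = 0.145). Id1 and Id3 were lower without overlap and neither passed in limma or edgeR. Over all genes 15.6% were lower in this way, and 13.3% were higher in the way Tsc22d1 was. Id2 overlapped between the groups at 90.3 ± 6.30 against 88.1 ± 4.28 FPKM (SD, n = 3). Tgfbi, a matrix protein gene named for its induction by TGF-beta, was at most 0.315 FPKM in any library.

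**Figure D4:**
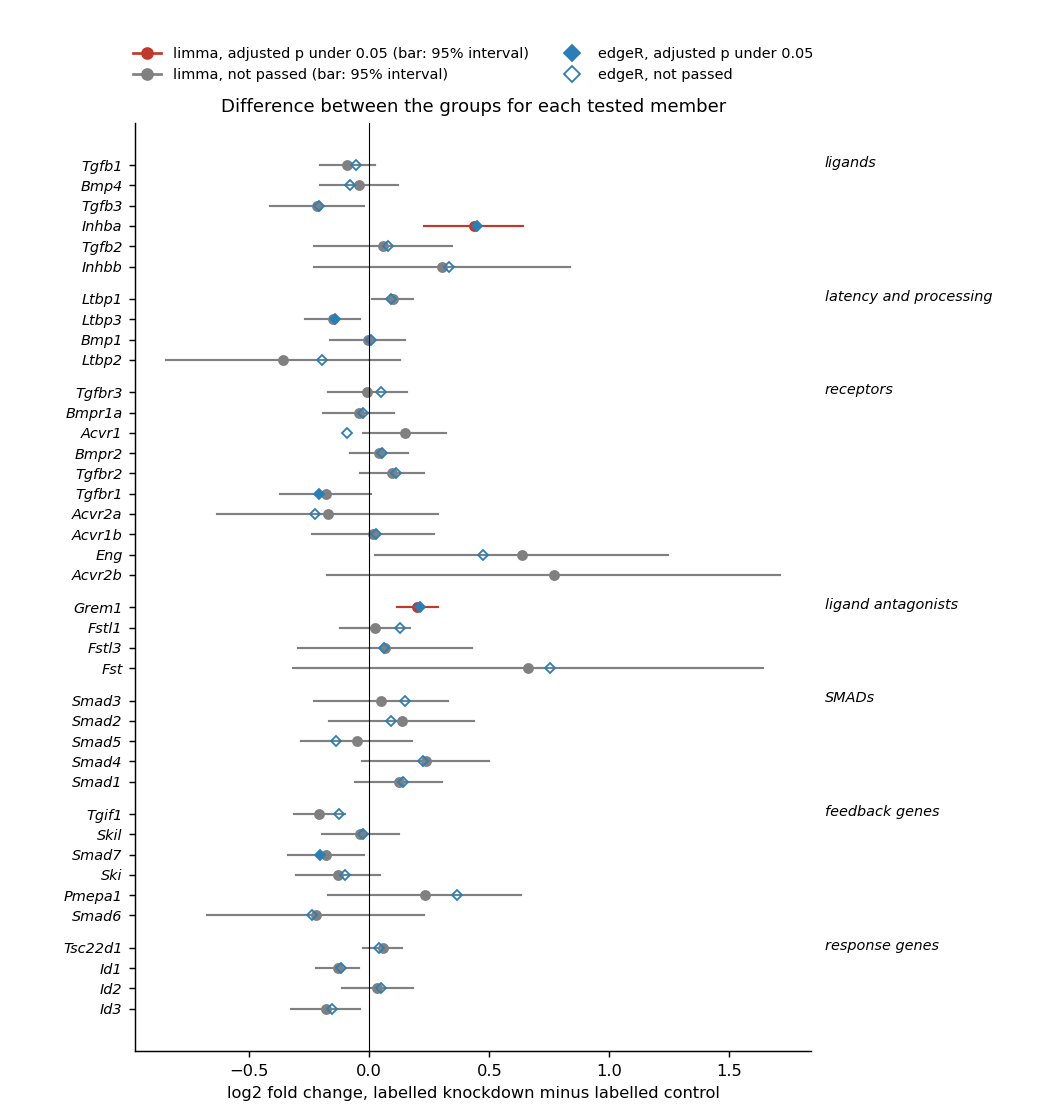
Log2 fold change of each tested gene (labelled knockdown minus labelled control), grouped by role; circles with bars give limma's estimate on log2(FPKM + 0.1) and its 95% interval, red where the adjusted p was under 0.05, and diamonds give edgeR's estimate, filled where its adjusted p was under 0.05. Inhba and Grem1 are the 2 red genes, Ltbp3, Tgfbr1 and Smad7 have filled diamonds only, and the widest intervals belong to genes at low levels such as Acvr2b, Fst and Eng.

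In addition, 5 ratios between members were compared, in each library and with exact two-sided permutation tests for which p = 0.1 is the smallest value. Of the FPKM summed over Smad1 to Smad7, without Smad9, the inhibitory SMADs Smad6 and Smad7 made up 24.8%, 23.1% and 21.8% in the knockdown-labelled libraries. In the control-labelled ones they made up 27.3%, 26.1% and 26.7%. The groups did not overlap (exact p = 0.1, 0.167 adjusted over the 5 ratios). Tgfbr1 to Tgfbr2 was 0.671 ± 0.0823 against 0.81 ± 0.0366, and Bmp4 to its antagonist Grem1 was 0.199 ± 0.00959 against 0.236 ± 0.0161 (SD, n = 3), both without overlap and with the same exact p and adjusted value. The share of Tgfb3 among the 3 TGF-beta ligands (23.9% ± 1.28 against 25.7% ± 1.52; exact p = 0.2) and the ratio of Inhba to Fst (12.4 ± 6.27 against 14.7 ± 5.90; exact p = 0.5) overlapped. Inhba rose, but its ratio to Fst did not separate the groups. Fst varied from 0.475 to 1.96 FPKM between libraries, at means of 1.43 FPKM in the knockdown-labelled and 0.864 FPKM in the control-labelled ones. The part of either in the ratio was not tested.

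Beyond these genes, 38 of 73 further pathway genes in the table were tested, among them other ligands, antagonists, ubiquitin ligases and SMAD partners. None passed in limma, 4 had an unadjusted p under 0.05 (22.4% over all genes), and edgeR called 1 higher and 1 lower. Of all genes, limma called 3.44% and edgeR 9.95%. The 2 of smallest p were Rgmb, a BMP co-receptor, at 18.6, 18.9 and 16.6 FPKM against 14.9, 15.1 and 13.3 FPKM (log2 fold change 0.32, limma adjusted p = 0.083; edgeR adjusted p = 0.0175), and Tgfbrap1, which binds TGF-beta receptors, at 5.51, 5.98 and 5.58 FPKM against 7.64, 6.97 and 7.07 FPKM (log2 fold change -0.34, limma adjusted p = 0.0909; edgeR adjusted p = 0.0172). Both were apart between the groups.

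Of 23 tested further response genes (32 in the table), 2 rose, 1 fell and 20 did not pass in limma, against 3.44% of all genes called. Ctgf, a matricellular protein gene, rose from 12.5, 12.9 and 18.7 FPKM in the control-labelled libraries to 33.4, 34.0 and 35.8 FPKM (log2 fold change 1.24, limma adjusted p = 0.0106). The cell cycle inhibitor gene Cdkn1a rose from 130.5, 135.2 and 138.7 to 159.4, 162.6 and 166.6 FPKM (log2 fold change 0.27, limma adjusted p = 0.0198). Both are induced by other pathways as well as by TGF-beta. Junb, an AP-1 subunit gene induced early after TGF-beta, fell from 118.7, 121.7 and 121.9 to 94.1, 96.5 and 99.0 FPKM (log2 fold change -0.32, limma adjusted p = 0.0106). EdgeR called 4 higher, adding Fn1 and Nedd9, and 2 lower, adding Klf10, against 9.95% of all genes. In limma 2 were called without knockdown replicate 3 and 3 without control replicate 3. None was called without knockdown replicate 1, knockdown replicate 2, control replicate 1 or control replicate 2, where 5, 6, 6 and 8 still had an unadjusted p under 0.05.

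**Figure D5:**
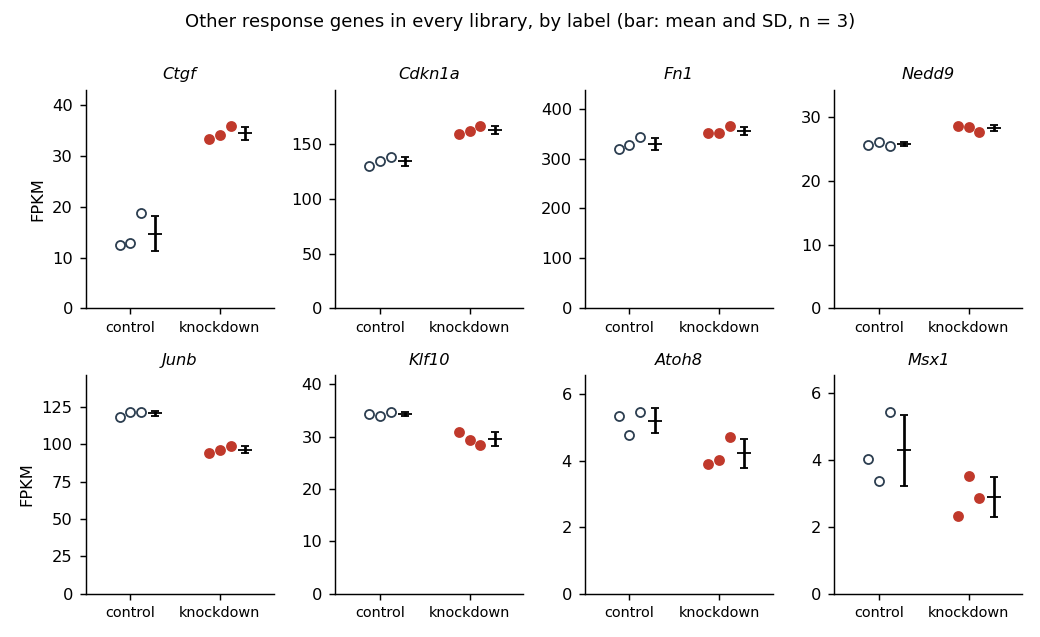
FPKM in every library for 8 response genes outside the 42, in panels that start at 0; each point is 1 library and the bar gives the mean and SD of 3. Ctgf and Cdkn1a stand above the control-labelled libraries, Junb and Klf10 below them, and the BMP response genes Atoh8 and Msx1 did not pass.

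The table of long noncoding RNA (lncRNA) transcripts pairs 62 transcripts with 22 of the 42 genes by position. Of these, 12 were expressed highly enough to be tested (0.1 FPKM or more in 3 or more libraries), 18 were listed at 0 in every library, and 1 was called by limma, against 4.26% of all lncRNA transcripts tested. It was Gm14454, transcribed away from Pmepa1 on the opposite strand (limma adjusted p = 0.0127). Gm14454 was listed at 0 FPKM in all 3 knockdown-labelled libraries and at 0.558, 0.982 and 1.11 FPKM in the control-labelled ones. It therefore entered the test only through its higher group, the control-labelled libraries. The deposited counts behind it were 2.75, 4.83 and 5.78 in those 3 libraries, so a few fragments carry the call, which was lost with the replicate number as a block and without knockdown replicate 2. Pmepa1 itself, a feedback gene that binds receptor SMADs, was at 4.93 ± 0.37 against 4.25 ± 0.872 FPKM (SD, n = 3) and overlapped. Whether strand was used in counting is not given in the sources used here, so reads of overlapping partners may not be told apart.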

How the data were processed

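Stranded total RNA libraries depleted of ribosomal RNA were made from 3 libraries labelled Myocd knockdown and 3 labelled control, per the labels' protocols. Cutadapt, HISAT2 2.0.4, Cufflinks and Cuffdiff 2.2.1 were used, per the submitters' processing notes, which name mm10 and mm9 without their roles. Neither the annotation release nor the use of strand in counting is stated there. The authors deposited FPKM values per gene and per lncRNA transcript. Beside them the authors deposited estimated counts, each column scaled by 1 constant per library. Divided by that constant, 90.1% to 90.4% of values above 0 in the protein-coding table lay within 0.01 of a whole number, and they are called fragments here.

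Rows of 79 repeated symbols were summed (22565 rows to 22482 genes), and lncRNA rows repeated per partner gene were used once (56348 rows, 31550 transcripts). Starts after adding 1 equalled those of RefSeq's GRCm38 for 6261 genes, against 472 as given. Group differences in log2(FPKM + 0.1) were tested with limma 3.58.1 (R 4.3.3), using its trend option and no covariate. The fit covered all 11612 genes with at least 0.5 FPKM in at least 3 libraries, and p-values were adjusted over all of them by Benjamini and Hochberg. Fold changes on this scale understate changes of low genes. EdgeR 4.0.16 (quasi-likelihood, TMM) and DESeq2 1.42.0 on rounded fragments were alternatives, as were other pseudocounts, filters, scalings, a replicate block and libraries left out in turn. Both replicate 3 libraries were also left out together. Repeating edgeR without each library, and without both replicate 3 libraries, was chosen after seeing the data. The fits were tested on simulated data.

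One gene of the further response list is not reported here and is left out of its counts. The members and lists were chosen with earlier results of these data known. Named in full were the members called by limma or edgeR and the most abundant member of each role, and of the further lists the genes limma called, or the 2 of smallest p. Other genes described by library were chosen after their values were seen. Depth limits low genes, and a gene with 0 fragments may have had up to 3.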

Additional observations from a re-analysis of the deposited data

How the results depend on the processing

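The count of calls depended on the fit more than the sizes of the changes did. Of 1041 values of the 39 tested genes over 27 alternative settings, 928 kept their direction and their side of the threshold, 65 turned sign, 27 came to pass and 21 no longer passed, and 26 genes never changed sign. Inhba passed in 6 of 16 limma settings and in 9 of 11 with count tools (log2 fold change 0.362 to 0.51, adjusted p = 0.0140 to 0.149), and Grem1 in 7 of 16 and 11 of 11 (0.186 to 0.224, adjusted p = 8.98e-07 to 0.122). The cause of the differences between fits was not tested.

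Calls among all genes (400) became 723 with DESeq2, 1150 with edgeR TMM, 1153 with edgeR RLE and 144 in limma without trend. They were 76 in limma and 1508 in edgeR with both replicate 3 libraries left out, and 44 to 1085 with single libraries left out over both tools. Members called (2) became 5 with edgeR TMM or RLE, 1 without a filter, 0 without trend (10 at an unadjusted p under 0.05), 0 in limma (9 unadjusted) and 9 in edgeR with both replicate 3 libraries left out, and 0 to 7 with single libraries left out over both tools (0 in limma each time, with 6 to 9 unadjusted). Further pathway genes called (0) became 2 with DESeq2, edgeR TMM or edgeR RLE. Further response genes called (3) became 5 with DESeq2, 6 with edgeR TMM or RLE, 1 without trend, 1 with both replicate 3 libraries left out and 0 to 3 with single libraries left out. The lncRNA calls ranged from 0 (without knockdown replicate 2) to 2 (without control replicate 1).

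The deviations of same-numbered libraries correlated at 0.037, -0.004 and 0.1 over the tested genes, so the numbers were not taken to pair the libraries, although the replicate 3 libraries share 40 genes at 0 in the other 4. With the replicate block limma called 243 of all genes, 0 members (8 unadjusted) and 0 lncRNAs paired with members, and edgeR TMM with the block called 1715 of all genes, 8 members, 5 further pathway genes and 7 further response genes.

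Sign changes concerned 13 genes, none of which passed in limma. Acvr1 turned to -0.096 with DESeq2 and edgeR RLE, -0.094 with edgeR TMM, -0.095 with the block and -0.181 with both replicate 3 libraries left out in edgeR, which called it lower there (adjusted p = 0.0298). Bmp1 turned to 0.005 (DESeq2, edgeR with block), 0.006 (RLE), 0.007 (TMM), 0.017 (median centred) and 0.000 (quantile normalized), and Tgfbr3 to 0.049 (DESeq2, RLE), 0.051 (TMM, with or without block), 0.017 (median centred) and 0.028 in edgeR with both replicate 3 libraries left out. With both left out, Bmp4 was at 0.043 (limma) and 0.008 (edgeR), Fstl1 at -0.048 (limma) and Skil at 0.011 (edgeR). With single libraries left out over both tools, the ranges were -0.143 to 0.219 for Acvr1, -0.030 to 0.066 for Acvr1b, -0.325 to 0.011 for Acvr2a, -0.060 to 0.058 for Bmp1, -0.099 to 0.010 for Bmpr1a and -0.012 to 0.151 for Fstl1. They were -0.073 to 0.220 for Fstl3, -0.020 to 0.082 for Id2, -0.069 to 0.026 for Skil, -0.072 to 0.175 for Smad3, -0.209 to 0.009 for Smad5 and -0.071 to 0.061 for Tgfbr3. The difference in the Inhba to Fst ratio ran from -5.9 to 1.04, turning sign without knockdown replicate 2 (0.00823) or control replicate 1 (1.04). Low depth limits Bambi, Bmp2, Tgfbi, Acvr2b and the lncRNAs.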

Other observations

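Some further genes known to respond to BMP signalling were measured, and none passed in limma or edgeR. They were chosen after their values were seen. Smad9, an SMAD of the BMP branch, was at 0.51, 0.57 and 0.46 FPKM in the knockdown-labelled libraries against 0.91, 0.77 and 0.80 FPKM in the control-labelled ones (log2 fold change -0.59, limma adjusted p = 0.257). Atoh8, a transcription factor gene, was at 3.91, 4.02 and 4.72 FPKM against 5.34, 4.77 and 5.46 FPKM (log2 fold change -0.30, limma adjusted p = 0.212), and the homeobox gene Msx1 had a log2 fold change of -0.54 (limma adjusted p = 0.207). Estimates in limma were positive for Gata2 (0.18, limma adjusted p = 0.635) and Gata3 (0.08, limma adjusted p = 0.822; close to 0 in edgeR), which encode zinc finger transcription factors.

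Among the further response genes of TGF-beta, edgeR placed Klf10, an early response gene, lower (log2 fold change -0.21, adjusted p = 0.0157) and the matrix gene Fn1 higher (log2 fold change 0.12, adjusted p = 0.0157).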
